A study of Mus musculus with 4 samples.

Results

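The mature 5p strands of let-7a, let-7b, let-7c, let-7d, let-7e, let-7f, let-7g, let-7i and miR-98 make up the let-7 family of guide RNAs in the mouse. These 9 miRNAs were chosen by name, with no threshold on their values, from the 869 miRNAs with a value in at least 1 sample, and all 9 were found in every sample. Small RNA was sequenced from C2C12 myotubes, made from a mouse skeletal myoblast line whose strain background is labelled 129/Rej. The cells were placed in differentiation medium with 2% horse serum, and RNA was taken on day 6. The negative control group (NC, 2 samples) received no guanidinoacetic acid, and the GAA group (2 samples) received 20 mM of it, which cells use to make creatine. C2C12 is an immortal line, and its cultures hold myotubes beside cells that have not fused. The labels do not say whether the samples of a group came from separate cultures, so p-values measure only the spread between these samples, which may be technical. A bulk sample cannot tell fewer cells of a kind from less RNA per cell.

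A miRNA is cut from a hairpin precursor, and the strand that is kept, the guide, leads a silencing complex to messenger RNAs that pair with its seed, bases 2 to 8. let-7 was first known as a timing gene of worm development. In mammals its guides are scarce in stem cells and embryos, where the protein LIN28 blocks the maturation of let-7 precursors, and they build up as cells differentiate. Known targets include Hmga2 and the Ras genes, which favour growth.

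The sequences below show what the paralogs share and where they differ, with the seed in capitals (RefSeq, GRCm38.p6, 5′ to 3′).
let-7a-5p: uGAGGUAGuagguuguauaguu
let-7b-5p: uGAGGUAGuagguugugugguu
let-7c-5p: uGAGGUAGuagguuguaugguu
let-7d-5p: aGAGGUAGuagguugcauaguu
let-7e-5p: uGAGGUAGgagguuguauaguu
let-7f-5p: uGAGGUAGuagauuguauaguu
let-7g-5p: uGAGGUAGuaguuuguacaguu
let-7i-5p: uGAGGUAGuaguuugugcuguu
miR-98-5p: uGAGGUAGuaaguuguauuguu

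All 9 guides are 22 nt long and hold the seed GAGGUAG, which 11 of the 1679 mature mouse sequences in the reference carry, or 0.655%. The remaining carriers are let-7k and miR-1961. The paralogs share 14 of 22 positions and differ at positions 1, 9, 11, 12, 16, 17, 18 and 19, counted from the 5′ end. With let-7a as the reference, let-7c carries A19G, let-7b carries A17G and A19G, let-7e carries U9G, and let-7f carries G12A. let-7c and let-7b are thus the only members with G at position 19 (A19G). The most distant pair, let-7d and let-7i, differs at 6 positions. Of the 36 pairs, 4 differ at a single base, among them let-7a with let-7c, let-7e and let-7f. Reads with a sequencing error can move between such neighbours, which leaves the values of each uncertain.

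The 9 guides come from 12 precursors, with a pair of loci each for let-7a, let-7c and let-7f. On chromosome 13, Mirlet7a-1 (chr13:48538179-48538272), Mirlet7f-1 (chr13:48537829-48537917) and Mirlet7d (chr13:48536012-48536114) lie in a row on the minus strand, over exons of the long noncoding RNA 6720427I07Rik. On chromosome 15, Mirlet7c-2 (chr15:85706603-85706697) and Mirlet7b (chr15:85707319-85707403) are 621 bases apart on the plus strand, over exons of Lncppara. On the X chromosome, Mirlet7f-2 (chrX:151912346-151912428) and Mir98 (chrX:151913214-151913321) lie 785 bases apart in an intron of Huwe1. Mirlet7c-1 (chr16:77599657-77599750) is in an intron of Mir99ahg, 656 bases from Mir99a. Mirlet7e (chr17:17830352-17830444) is in an intron of Spaca6, 367 bases from Mir125a. Mirlet7a-2 (chr9:41536716-41536811) is in an intron of Gm49317, 5211 bases from Mir100. Mirlet7g (chr9:106178840-106178927) is in an intron of Wdr82, and Mirlet7i (chr10:122985640-122985724) lies over the transcribed pseudogene D630033A02Rik. Coordinates are those of GRCm38.

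Values were deposited as log2(RPM + 1), where RPM is the reads of a miRNA divided by all mappable reads of the sample and scaled by 1000000. Reads were recovered from the equal steps between values. The 4 samples held 4732359 to 5657704 mappable reads and 1653803 to 3134241 miRNA reads. A level of 3 reads was worth 0.530 to 0.634 RPM, far below every member. The miRNA share of mappable reads was 33.6% and 43.6% for the NC samples and 56.3% and 50.4% for the GAA samples, so a miRNA with a constant share of the miRNA reads had a higher RPM in GAA. Fold changes are therefore given in RPM and as a share of the summed miRNA RPM. The 7 muscle miRNAs set as markers were found in every sample, with a summed level of 10480 to 13715 RPM in NC and 10533 to 11218 RPM in GAA. Of 13 marker names for blood, liver, nerve, endothelium and endocrine cells, 12 were found in some sample. The name without a value was miR-375, while miR-375-3p was found. The sums were 55.4 to 63.8 RPM in NC and 71.4 to 102.4 RPM in GAA. The liver miRNA miR-122-5p was at 0 in both NC samples, and its level in GAA was 3.05 and 0.354 RPM. The latter, in GAA-2, is below the level of 3 reads. These sums are in RPM and were not taken as a share of the miRNA reads. Because miRNAs made up more of the mappable reads in GAA, an equal RPM there is a smaller share. The muscle sums in GAA were little above that of NC-1 and below that of NC-2. The share of the muscle markers among the miRNA reads was thus lower in both GAA samples than in both NC samples. For the other markers, the ranges above do not compare shares between the groups. The part of these cell markers in the results below was not tested.

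The family was led by let-7c, let-7f and let-7i, and the leading paralog was not the same in the groups. let-7c stood at 3344 and 5021 RPM for NC-1 and NC-2, and at 3794 and 4382 RPM for GAA-1 and GAA-2. let-7f stood at 2554, 4356, 4476 and 5104 RPM, with the samples in that order here and throughout. let-7i stood at 1986, 3458, 3888 and 4425 RPM. Thus let-7c ranked first in both NC samples and at place 3 in both GAA samples, where let-7f ranked first and let-7i second. Below them came let-7a, with 1295, 1976, 2058 and 2345 RPM, and let-7b, with 874, 1354, 1138 and 1268 RPM, which ranked 4 and 5 in every sample. let-7g ranged from 363 to 684 RPM, let-7e from 385 to 720 RPM, let-7d from 308 to 553 RPM, and miR-98 from 129 to 242 RPM. Among all miRNAs, the mean RPM of the members ranked from 19 for let-7c to 102 for miR-98.

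**Figure D1:**
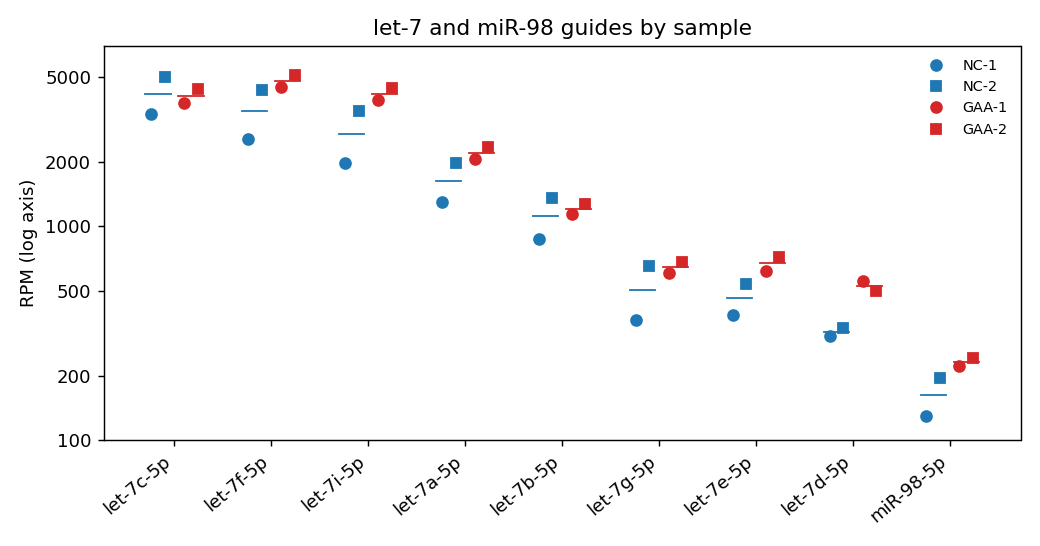
RPM of each let-7 or miR-98 guide on a log axis, with a point for each sample (NC blue, GAA red; circles replicate 1, squares replicate 2) and a line for each group mean. let-7c tops both NC samples and let-7f both GAA samples, and miR-98 is lowest in all 4.

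The order was compared within samples, where the paralogs share a library. let-7f exceeded let-7i in 4 of 4 samples, by 0.28 ± 0.08 on the log2 scale (SD over 4 samples). The same held for let-7i over let-7a (0.81 ± 0.14), let-7a over let-7b (0.71 ± 0.18), let-7b over let-7g (1.03 ± 0.17), let-7e over let-7d (0.43 ± 0.23) and let-7d over miR-98 (1.10 ± 0.24). For each of these, the exact sign-flip permutation test gave p = 0.13, the smallest value that 4 samples allow (two-sided). The pairs are neighbours in the order of mean log2 RPM over the same 4 samples, with both groups pooled. Pairs and directions thus came from the values tested, and the test is a description only. All guides have the same length, so no correction for length was needed, but how well each sequence enters a library was not measured. let-7c and let-7f had no common order over the samples: let-7c was above let-7f by 0.39 and 0.21 on the log2 scale in NC and stood at -0.24 and -0.22 relative to it in GAA, so their mean gap over 4 samples averages opposite signs. let-7g and let-7e did not differ beyond their spread, at 0.02 ± 0.17 (exact permutation p = 1). With 8 neighbouring pairs compared, no gap could pass a threshold of 0.05, adjusted or not.

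Summed over the 9 guides, the family did not separate the groups. The sum was 11238 and 17884 RPM for the NC samples, and 17354 and 19667 RPM for the GAA samples. The groups overlapped, with NC-2 above GAA-1, and the means were 14561 ± 4699 RPM in NC and 18510 ± 1636 RPM in GAA (SD, n = 2). As a share of the miRNA reads, the family took 3.35% in NC-1 (95% Wilson interval 3.32% to 3.37%) and 4.10% in NC-2 (4.07% to 4.12%). The share was 3.08% (3.06% to 3.10%) for GAA-1 and 3.90% (3.88% to 3.93%) for GAA-2. These intervals cover the sampling of reads only. The means, 3.72% ± 0.53 in NC and 3.49% ± 0.58 in GAA (SD, n = 2), differed by less than the spread between replicates. The difference of -0.23 percentage points became 0.15 without NC-2 and 0.18 without GAA-1, so it had no fixed direction.

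In RPM, 8 of the 9 guides had a higher mean on the log2 scale in GAA, and none passed the test. For 6 guides, let-7a, let-7d, let-7e, let-7f, let-7i and miR-98, both GAA samples lay above both NC samples. Among the 371 miRNAs with at least 1 RPM in every sample, 64.4% did the same and 2.7% lay lower, so the members' count was near that background. With limma over all 869 miRNAs and Benjamini-Hochberg adjustment, 0 of the 9 members, and 0 miRNAs in all (0%), met both criteria for a call, an FDR under 0.01 and a log2 fold change beyond 1 in either direction. At an unadjusted p under 0.05, limma gave 1 member, let-7d, and 152 of all miRNAs. The median log2 fold change was 0.52 over the members and 0.49 over the 371 miRNAs.

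let-7d, made beside let-7a and let-7f on chromosome 13, had the largest log2 fold change of the members in RPM. It stood at 308 and 335 RPM in NC and 553 and 497 RPM in GAA. The groups lay apart, and the replicates were closer to each other than those of the other members in NC. Its log2 fold change was 0.70 (standard error 0.16, limma, adjusted p = 0.206). A higher one was found for 90 of the 371 miRNAs with at least 1 RPM in every sample. NC-2 exceeded NC-1 by a factor of 1.09 for let-7d and by 1.40 to 1.79 for the other 8. In GAA, let-7d was also the only member that was lower in GAA-2 than in GAA-1.

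let-7i had a log2 fold change of 0.66 in RPM (standard error 0.33, limma, adjusted p = 0.365), which was 0.26 without NC-1 and 1.06 without NC-2. let-7e, at 385 and 539 RPM in NC and 620 and 720 RPM in GAA, had one of 0.55 (standard error 0.23, limma, adjusted p = 0.316). miR-98, at 129 and 196 RPM in NC and 222 and 242 RPM in GAA, had one of 0.54 (standard error 0.26). For let-7f the value was 0.52 (standard error 0.32), for let-7a 0.46 (standard error 0.27) and for let-7g 0.41 (standard error 0.33). The lowest values were 0.14 for let-7b (standard error 0.27) and -0.01 for let-7c (standard error 0.27, limma, adjusted p = 0.984). Of the 371 miRNAs with at least 1 RPM in every sample, 341 had a higher log2 fold change than let-7c, and 308 a higher one than let-7b.

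As a share of the summed miRNA RPM, let-7c and let-7b were lower in both GAA samples than in both NC samples, and let-7d was higher. let-7c took 0.996% and 1.15% of the miRNA reads in NC and 0.674% and 0.870% in GAA. let-7b took 0.260% and 0.310% in NC and 0.202% and 0.252% in GAA. let-7d took 0.0917% and 0.0768% in NC and 0.0982% and 0.0987% in GAA. For the other 6 members the groups overlapped. Across the 371 miRNAs, 22.4% lay higher in both GAA samples and 18.3% lower, so that 1 and 2 of 9 members were not far from the background. On this scale limma gave a log2 fold change of -0.48 for let-7c (standard error 0.22, adjusted p = 0.621), -0.33 for let-7b (standard error 0.20, adjusted p = 0.777) and 0.23 for let-7d (standard error 0.19, adjusted p = 0.781). None of the 9 members passed the thresholds or an unadjusted p of 0.05 in limma, and 1 miRNA of all 869 (0.115%) passed the thresholds. The median over the members was 0.04, and over the 371 miRNAs 0.04.

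**Figure D2:**
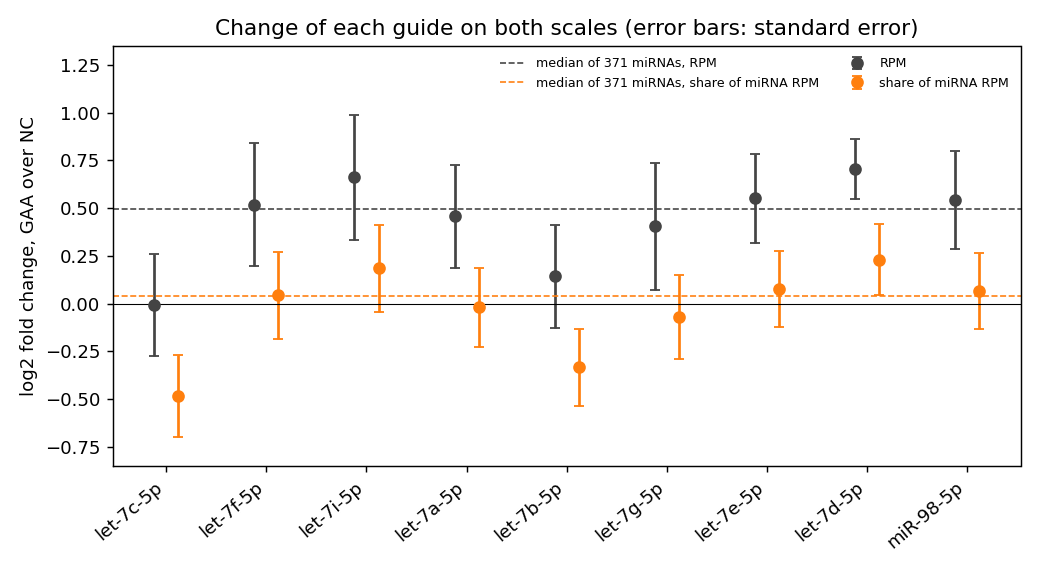
Log2 fold change of GAA over NC for each guide, in RPM (grey) and as a share of the summed miRNA RPM (orange), with standard errors from limma. Dashed lines mark the median of the 371 miRNAs with at least 1 RPM in every sample, 0.49 and 0.04, and let-7a, let-7b, let-7c and let-7g lie below it on both scales.

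Within the family, the shares of let-7c, let-7i, let-7f and let-7b differed between the groups by more than they did between replicates. The same held for let-7a and miR-98, with differences of 0.61 and 0.13 percentage points. Those of let-7d, let-7e and let-7g differed by less than the NC samples did from each other. let-7c supplied 29.8% and 28.1% of the family's reads for the NC samples, and 21.9% and 22.3% for the GAA samples. Its mean was 28.9% ± 1.2 in NC and 22.1% ± 0.3 in GAA (SD, n = 2), a difference of -6.84 percentage points. let-7i supplied 17.7% and 19.3% in NC and 22.4% and 22.5% in GAA, with a difference of 3.94 percentage points. let-7f supplied 22.7% and 24.4% in NC and 25.8% and 25.95% in GAA, a difference of 2.33 percentage points. let-7b supplied 7.77% and 7.57% in NC and 6.56% and 6.45% in GAA. The sampling of reads gave 95% Wilson intervals no wider than 0.762 percentage points for any member in any sample.

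Both members with A19G relative to let-7a, let-7c and let-7b, thus made up less of the family in GAA, together 37.5% and 35.6% in NC against 28.4% and 28.7% in GAA. They are also the pair encoded side by side on chromosome 15, though let-7c has a further locus on chromosome 16. Whether the shared base or the shared locus plays a part was not tested. let-7a, let-7e, let-7f, let-7i and miR-98 made up more of it in both GAA samples, while let-7d and let-7g overlapped between groups. For the 7 guides whose groups did not overlap, the exact permutation test over samples gave p = 0.33 (two-sided), the smallest value that 2 against 2 allows, so no share could pass a threshold of 0.05. Divided by the same family sum, 18.9% of the 371 miRNAs lay higher and 8.63% lower in both GAA samples. The members are part of their own divisor, which narrows their spread, so these percentages are not a like measure. With limma on values divided by the family sum, the log2 fold change of let-7c was -0.39 (standard error 0.38, adjusted p = 0.901). That of let-7i was 0.28 (standard error 0.38, limma, adjusted p = 0.901). On this scale 0 of the 9 members were called, against 0.115% of all miRNAs. limma draws these standard errors toward the spread of other miRNAs divided by the same sum. They therefore do not measure the spread of let-7c or let-7i alone.

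**Figure D3:**
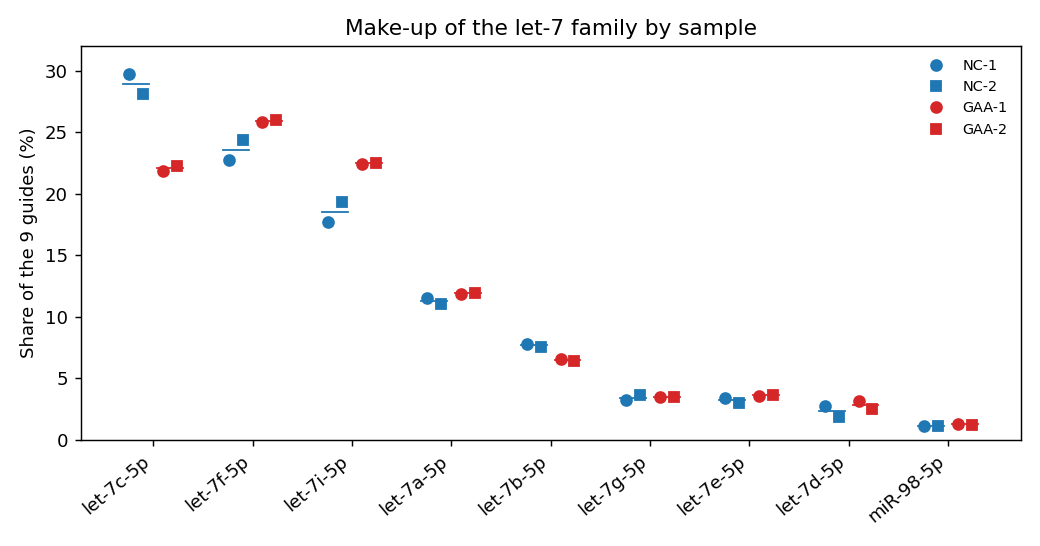
Share of each guide among the summed RPM of the 9 guides, in percent, with a point for each sample (NC blue, GAA red; circles replicate 1, squares replicate 2) and a line for each group mean. let-7c drops from 29.8% and 28.1% in NC to 21.9% and 22.3% in GAA, and let-7i and let-7f are higher in both GAA samples.

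Shares that sum to a whole are tied to each other, so a lower let-7c raises the rest, and higher levels of the rest lower the share of let-7c. With let-7b and let-7c left out of the sum, a choice made after seeing the data, let-7i still made up more in both GAA samples, at 31.3% and 31.6% against 28.3% and 30.04% in NC. On that sum let-7a and let-7g were lower in both GAA samples, at 16.6% and 16.7% against 18.4% and 17.2% for let-7a. The groups overlapped for let-7d, let-7e, let-7f and miR-98.

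Ratios between paralogs do not depend on the divisor. The ratio of let-7c to let-7f was 1.31 and 1.15 for the NC samples, and 0.848 and 0.859 for the GAA samples. let-7c to let-7i was 1.68 and 1.45 in NC and 0.976 and 0.990 in GAA. For both ratios the distance between the groups was larger than that between replicates. In contrast, let-7a to let-7f, which differ by a single base (G12A), was 0.507 and 0.454 in NC and 0.460 and 0.460 in GAA, within the NC range. Of the 36 ratios between members, 21 did not overlap between groups, while 44.2% of the 68635 ratios between the 371 miRNAs did not. These ratios share members and are not independent of each other.

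The way in which reads were counted bears on the members unequally. The recovered reads were whole to within 0.05 for let-7b, let-7d, let-7e, let-7g, let-7i and miR-98, which have 1 precursor each. For let-7c they lay 0.500 from a whole number in all 4 samples, and for let-7a and let-7f in 2 samples each. These are the 3 guides with a pair of precursors. How reads that fit several precursors were counted is not given in the sources used here, and its part in the lower share of let-7c was not tested.

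The opposite strands of the same hairpins, the 3p arms, are mostly discarded during maturation. All 12 listed 3p arms were detected, and all 12 had a higher mean log2(RPM + 1) in GAA, from 0.33 to 0.83 in log2 fold change, with a median of 0.67. Of the 371 miRNAs, 91.6% had a higher mean, with a median of 0.49. As a share of miRNA RPM, the median of the arms was 0.28, against 0.04 over the 371 miRNAs, and let-7f-2-3p was at -0.13. In RPM, both GAA samples lay above both NC samples for 11 of them, against 64.4% of the 371 miRNAs, and as a share of miRNA RPM for 6, against 22.4%. Several arms had few reads, and let-7a-1-3p and let-7c-2-3p share reads, so these counts are not of independent arms. With limma, 0 of the 12 passed the thresholds (lowest adjusted p = 0.205), and 5 had an unadjusted p under 0.05 in RPM, as did 152 of all 869 miRNAs and 111 of the 371. On the share scale, 0 of the 12 passed the thresholds in limma, and 0 had an unadjusted p under 0.05.

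let-7b-3p is the opposite strand of the let-7b hairpin. It stood at 64.4 and 69.3 RPM in NC, and at 125.9 and 106.0 RPM in GAA. Both GAA samples were higher, by 0.78 on the log2 scale (standard error 0.17, limma, adjusted p = 0.205). Its share of miRNA RPM was higher by 0.31 on the log2 scale (standard error 0.20, limma, adjusted p = 0.777), against -0.33 for the guide. The let-7b guide outnumbered it by factors of 13.6 and 19.5 for the NC samples, and 9.03 and 11.95 for the GAA samples. On the log2 scale the ratio was 4.03 ± 0.37 in NC and 3.38 ± 0.29 in GAA (SD, n = 2), and the groups did not overlap, a difference that was not tested further. For let-7d, by contrast, the guide outnumbered let-7d-3p by factors of 2.00 and 2.01 in NC and 1.98 and 2.15 in GAA.

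Across the 12 guide to 3p arm ratios, 10 had a lower mean in GAA, with a median change of -0.33 on the log2 scale. Of 144 other miRNAs with both arms in every sample, 59.0% had a lower mean, with a median of -0.08. The guides let-7a, let-7c and let-7f, whose reads are pooled over their loci, each enter a pair of the 12 ratios. In addition, let-7a-1-3p and let-7c-2-3p share reads. The 12 are thus not independent, and not a like measure to the 144. The groups lay apart for 3 ratios, all lower in GAA, while 22.9% of the 144 were lower and 11.1% higher in this way. Besides let-7b, these were let-7a with let-7a-2-3p and let-7c with let-7c-1-3p, whose 3p arms had 2 to 8 and 3 to 15 reads. Leaving out GAA-1 reduced the 10 lower ratios to 6, and leaving out NC-2 reduced them to 7. Without NC-1 the count was 11 and without GAA-2 it was 12, so it depended on single samples of both groups.

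**Figure D4:**
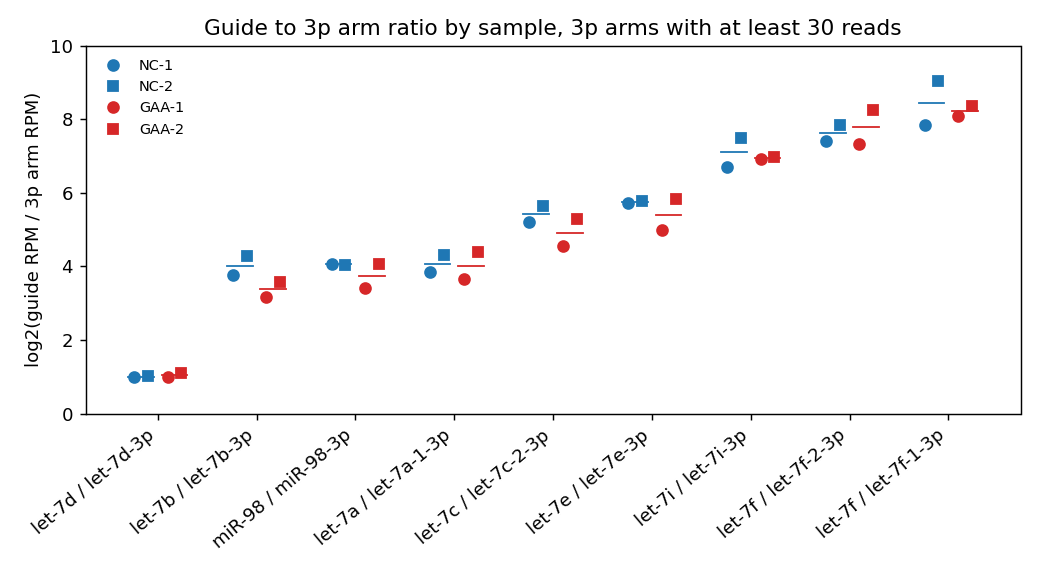
Log2 ratio of guide RPM to 3p arm RPM for the 9 arms with at least 30 reads in every sample (NC blue, GAA red; circles replicate 1, squares replicate 2), with a line for each group mean. let-7d has the lowest ratio, near 1 in all samples, and let-7b is the pair in the plot whose GAA samples both lie below both NC samples.

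let-7a-1-3p and let-7c-2-3p have the same sequence and had the same values, at 443 and 473 reads for NC, then 900 and 637 for GAA, so their reads cannot be assigned to a locus.
let-7a-1-3p: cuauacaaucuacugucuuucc
let-7c-2-3p: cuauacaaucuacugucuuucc

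let-7j, which is named as a let-7 but is no member, differs from let-7i by G8U, at the last base of the seed, and runs on for 2 more bases.
let-7i-5p: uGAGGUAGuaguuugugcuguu
let-7j: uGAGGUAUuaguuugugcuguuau

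let-7j stood at 284 and 572 RPM in NC, and at 705 and 616 RPM in GAA. As for let-7i, both GAA samples were higher in RPM, by 0.71 on the log2 scale (standard error 0.39, limma, adjusted p = 0.406). Its share of miRNA RPM was 0.23 higher on the log2 scale on average (standard error 0.23), and the groups overlapped. It amounted to 14.3% and 16.5% of let-7i in NC and 18.1% and 13.9% in GAA, and in this measure the groups overlapped. As the sequences are nearly identical, reads shared between them leave both values uncertain. let-7k, which holds the let-7 seed in 19 nt, had 1 read in each GAA sample and none in NC, which is under the level of 3 reads. miR-1961 had no value in any sample. Apart from these reads of let-7k, the seed GAGGUAG was carried by the 9 members alone.

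The 5 guides listed as sharing transcripts with members, miR-99a-5p, miR-99b-5p, miR-100-5p, miR-125a-5p and miR-125b-5p, lay higher in both GAA samples in RPM, as 64.4% of the 371 miRNAs did, and none met the criteria for a call. Mir125b-1 lies 45114 bases from Mirlet7a-2. A further locus of miR-125b-5p, Mir125b-2, was not placed here, so the values of this guide are not those of the neighbour of Mirlet7a-2 alone. Its recovered reads lay 0.500 from a whole number in 3 samples. miR-125a-5p, 367 bases from let-7e, stood at 2809 and 3065 RPM in NC, and at 7657 and 4738 RPM in GAA. The change was 1.04 on the log2 scale (standard error 0.29, limma, adjusted p = 0.231), against 0.55 for let-7e. The log2 fold change of miR-99b-5p was 1.04 (standard error 0.33), that of miR-125b-5p 0.68, that of miR-100-5p 0.62 and that of miR-99a-5p 0.50. On the share scale these became 0.56 for miR-125a-5p and miR-99b-5p, 0.20 for miR-125b-5p, 0.14 for miR-100-5p and 0.0239 for miR-99a-5p, and the groups overlapped for all but miR-125a-5p. miR-99a-5p, 656 bases from let-7c-1, stood at 107 and 124 RPM in NC and 170 and 156 RPM in GAA, while let-7c, which has a further locus, overlapped between groups. The differences between neighbours were not tested.

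The miRNA whose pattern over the 4 samples was most like that of the family sum was miR-744-5p, with a root mean square distance of 0.0586 on the log2 scale, among 112 miRNAs with a mean of at least 100 RPM. It was followed by miR-143-3p (0.12), miR-181c-3p, miR-24-3p and miR-181b-5p (0.15 each). The median distance of the 112 miRNAs was 0.29. With 4 samples this measure is a description only.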

How the data were processed

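C2C12 myotubes without (NC) or with 20 mM GAA were compared on day 6, with 2 samples per group, named from the labels. The authors removed adaptors, low-quality reads, repeated sequences and reads outside 14 to 36 nt, aligned what remained to GRCm38, and used miRDeep2 to count miRNAs of miRBase 21. The deposited files give log2 values, found to be log2(RPM + 1) from the equal steps between them, and a miRNA without reads has no value and was set to 0. Reads per value were recovered from these steps and were not whole, to within 0.05, for 49 of 869 miRNAs. The count test of the study's methods was not run on these recovered reads.

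GAA and NC were compared with limma 3.58.1 (R 4.3.3, mean-variance trend) over 869 miRNAs with a pseudocount of 1, no filter on low values and Benjamini-Hochberg adjustment, in RPM, as a share of summed miRNA RPM and relative to the family sum. Fold changes on this scale understate changes of low miRNAs. A call needed a log2 fold change beyond 1 in either direction at an FDR under 0.01. The fit was tested on simulated data. Single values were compared by exact permutation tests (scipy 1.17.1). The members and lists were chosen with earlier results of these data known. Named beside the members are their 3p arms, let-7j, let-7k, miR-1961, the guides of shared transcripts, and the 5 miRNAs, of at least 100 RPM on average, with the smallest root mean square distance to the family sum. Alternatives were other divisors, the replicate block, a pseudocount of 0.1, filters of 1 RPM or 10 reads, no variance trend, an FDR of 0.05, and each sample left out. Depth was 1653803 to 3134241 miRNA reads per sample. No sequencing batch is given in the labels. Loci came from GENCODE M21 and RefSeq (GRCm38), and figures from matplotlib 3.10.9.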

Additional observations from a re-analysis of the deposited data

How the results depend on the processing

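No member passed the thresholds under any alternative, in RPM or as a share of miRNA RPM, among 207 refitted log2 fold changes, of which 25 changed sign. The count of called miRNAs in RPM, 0, became 1 with division by summed miRNA RPM, by that sum without the 5 most abundant miRNAs, by median-of-ratios factors or by the summed RPM of the 9 members. As a share of miRNA RPM, 1 miRNA was called, against 6 with the replicate block, 6 with the crossed block, and 0 with a pseudocount of 0.1, with at least 10 reads required or without the variance trend (the last 3 and the crossed block were added after seeing the data), and 0 to 0 with each sample left out. Same-numbered samples did not deviate together (correlation of deviations -0.15 over 323 miRNAs), so the numbers were not taken as pairs. With the replicate block in RPM, 0 miRNAs and 0 members were called, and the crossed block gave 0 too.

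The RPM fold changes that changed sign with the divisor were those of let-7a (-0.0188 by miRNA RPM, -0.0730 by median-of-ratios factors), let-7b (-0.33 by miRNA RPM, -0.25 without the 5 most abundant, -0.39 by median-of-ratios factors, -0.24 by the 9 members), let-7g (-0.0705 by miRNA RPM, -0.12 by median-of-ratios factors) and let-7f (-0.0116 by median-of-ratios factors). Without the 5 most abundant miRNAs in the divisor, the share-based values became 0.0672 for let-7a and 0.0154 for let-7g. With each sample left out, RPM fold changes ranged from 0.15 to 0.76 for let-7a, 0.63 to 0.78 for let-7d, 0.31 to 0.79 for let-7e, 0.13 to 0.90 for let-7f, 0.26 to 1.06 for let-7i, 0.24 to 0.84 for miR-98, -0.17 to 0.46 for let-7b, -0.30 to 0.29 for let-7c and -0.0124 to 0.82 for let-7g. let-7b and let-7g turned negative without NC-1, and let-7c turned positive without NC-2 or GAA-1 (0.0969). Share-based fold changes ranged from -0.19 to 0.16 for let-7a (0.10 without NC-2), -0.11 to 0.26 for let-7e, -0.15 to 0.24 for let-7f (-0.13 without GAA-2), -0.30 to 0.16 for let-7g (0.10 without GAA-1), -0.0249 to 0.40 for let-7i and -0.0750 to 0.21 for miR-98 (-0.04 without NC-1). They kept their sign for let-7c, at -0.67 to -0.30, let-7b, at -0.49 to -0.18, and let-7d, at 0.10 to 0.36. The cause of these changes was not tested.

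The log2 change of the family sum, with each sample left out, was 0.05 to 0.72 in RPM. It became -0.0945 by miRNA RPM and -0.00847 without the 5 most abundant. The difference of the family share ranged from -0.64 to 0.18 percentage points. The change of let-7c within the family was -7.68 to -6.00 percentage points with a sample left out, and that of its log2 ratio to let-7f -0.62 to -0.43. With let-7b and let-7c left out of the family sum, changes became -1.16 for let-7a, -0.0185 for let-7e, -0.89 for let-7f, -0.53 for let-7g, 2.26 for let-7i and -0.0133 for miR-98. Guide to 3p arm ratios lower in GAA numbered 6 to 12 of 12 with a sample left out. With 2 samples per group, permutation tests could not pass 0.05, and depth limited the 3p arms with under 10 reads.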
